A study of Mus musculus with 6 samples.

Results

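The genes described here are the transcription factors of the Myc network in hematopoietic stem cells (HSCs) that lack the ribosomal protein Rpl22. The members were the 10 rows of the count table whose symbols are *Myc*, *Mycn*, *Max*, *Mxd1*, *Mxi1*, *Mxd3*, *Mxd4*, *Mnt*, *Mga* and *Mlx*, out of 34573 genes. They were taken by name, in a choice made with earlier results of these data known. All 10 were among the 14004 genes with enough counts to be tested. HSCs were sorted from mouse bone marrow as lineage-negative CD48-CD150+ cells, which the paper defines as Kit+ and Sca1+ too. Polyadenylated RNA was sequenced from 3 samples of Rpl22-/- mice (labelled Rpl22 KO) and 3 samples of Rpl22+/+ mice (labelled Rpl22 WT). The mice were young adults on a C57BL/6 background, the labels name no treatment, and *Rpl22* was absent from the germline, so that every cell type of the animal lacked it and not HSCs alone. The labels do not say whether the 3 samples of a genotype came from separate animals, so that the p-values measure the spread between these samples, which may be technical.

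Myc is a basic helix-loop-helix leucine zipper protein that binds DNA, mostly at the E-box CACGTG, only as a dimer with Max, and raises the transcription of genes for growth, ribosome production and cell division. Mxd1, Mxi1 (also called Mxd2), Mxd3, Mxd4 and Mnt also dimerize with Max, bind the same sites and recruit the Sin3 corepressor with histone deacetylases, while Mga brings Max into a Polycomb complex. Mlx is a relative of Max that pairs with Mnt, some Mxd proteins and the glucose-sensing Mondo proteins. In HSCs, *Myc* and *Mycn* are known to act redundantly in survival and proliferation, and the level of Myc is linked to the choice between self-renewal and differentiation.

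Because the network's proteins bind the E-box, the promoters of the members were read for it. RefSeq windows of 250 bases before to 50 bases after the gene start (GRCm38.p6) were matched for 9 of the 10 members, all except *Myc*, with 3 windows for *Mxi1* and 1 for each of the others. The 6 letters CACGTG, which read the same on both strands, stood in a window of 4 of these 9 genes (4 of 11 windows), of 2187 of all 27025 genes with a window (8.09%; 2349 of 32851 windows, 7.15%) and of 19 of 64 of the Myc target genes described later (29.7%). A match describes the letters only and is not a measured binding site. The windows below, each of 30 bases on the strand of the gene with the E-box in capitals, are shown because they hold the network's own recognition sequence, at *Max*, *Mlx* and 2 of the 6 genes for repressive partners, beside *Pes1*, a Myc target that was higher in Rpl22-/- HSCs. The windows of *Mycn*, *Mxd1*, *Mxi1*, *Mxd3* and *Mga* held no match, nor did those of the called targets *Nolc1* and *Tfrc*.
Max, chr12:76962234-76962263, minus strand: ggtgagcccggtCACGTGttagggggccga
Mlx, chr11:101087238-101087267, plus strand: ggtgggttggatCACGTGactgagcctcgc
Mnt, chr11:74830789-74830818, plus strand: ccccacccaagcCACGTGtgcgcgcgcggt
Mxd4, chr5:34187912-34187941, minus strand: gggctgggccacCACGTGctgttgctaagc
Pes1, chr11:3963965-3963994, plus strand: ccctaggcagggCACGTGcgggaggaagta
The E-box began 3 bases before the RefSeq start that set the window in *Max*, 40 before in *Mlx*, 123 before in *Mnt* and 219 before in *Mxd4*. The gene positions given below come from another annotation, GENCODE, and their starts can differ from these.

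The libraries held between 9321123 and 13385850 counts on genes, with the least in Rpl22+/+ replicate 3. *Rpl22* itself was 40.1 ± 4.59 CPM (counts scaled to a common library size; SD, n = 3) in Rpl22-/- and 538 ± 20.7 in Rpl22+/+ HSCs, a log2 fold change of -3.75 (SE 0.105, adjusted p = 2.97e-12). On the leading principal component, which held 42.05% of the variance, Rpl22-/- replicate 1 lay nearest to the Rpl22+/+ libraries. All 13 HSC markers listed were tested, and their summed level was 2928 to 3232 CPM in Rpl22-/- and 3135 to 3183 CPM in Rpl22+/+ libraries. *Fgd5* alone was called (log2 fold change -0.41, adjusted p = 0.0308). Its call was lost without Rpl22-/- replicate 2 or 3 or any 1 of the Rpl22+/+ libraries. Without Rpl22-/- replicate 2, another marker passed instead, and it was higher in Rpl22-/- HSCs. Of the 14004 genes tested with edgeR's quasi-likelihood test, 780 (5.57%) passed an adjusted p of 0.05, and this share is the background for the counts that follow. Rpl22-/- HSCs had the higher level in 459 of these genes (3.28% of those tested) and the lower level in 321 (2.29%). With library size alone as the scaling, 43.4% of the called genes were higher, against 58.8% with the TMM scaling used here.

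Of the 10 network genes, *Myc* alone passed the test, and it was higher in Rpl22-/- HSCs. That is 10% of the members against 5.57% of all genes tested (3.28% in the higher direction), and with 10 genes a single call more or less moves the share by 10 points. The fitted fold changes of the 10 genes were split evenly, 5 above and 5 below zero, with a median log2 fold change of 0.050, against a median of -0.0068 over all genes tested. An unadjusted p under 0.05 was reached by 4 members (*Myc*, *Mycn* and *Max* higher, *Mga* lower), where 22.3% of all genes reached it (11.6% higher, 10.7% lower). In 3 members (*Myc*, *Max* and *Mga*) the genotypes did not overlap, as in 26.9% of all genes (13.3% above, 13.6% below).

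**Figure D1:**
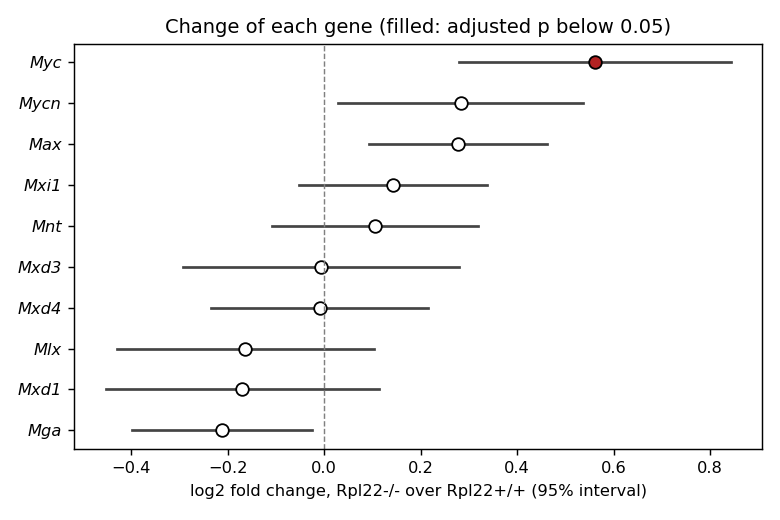
Log2 fold change (Rpl22-/- over Rpl22+/+, x axis) of each of the 10 genes with its 95% confidence interval from edgeR (horizontal line); a filled point marks an adjusted p below 0.05. *Myc* lies farthest to the right at 0.56 and is the one filled point, and the intervals of *Mycn*, *Max* and *Mga* also lie on one side of zero before adjustment.

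*Myc*, on chr15:61985391-61990374 (plus strand), was measured at 359, 408 and 429 CPM in Rpl22-/- and at 331, 271 and 207 CPM in Rpl22+/+ libraries, from 1987 to 5646 reads per library. Every Rpl22-/- library was above every Rpl22+/+ library, by a gap of 27.6 CPM between the nearest values. The means were 398 ± 36.1 and 270 ± 62.2 CPM (SD, n = 3), which gave a log2 fold change of 0.56 (SE 0.133, 95% interval 0.28 to 0.84, adjusted p = 0.0243 by edgeR), or 1.48-fold (1.21 to 1.80). An exact two-sided permutation test of the 6 values gave p = 0.1, the smallest that 3 against 3 samples allow. In bulk libraries, a larger share of cells with much *Myc* and more *Myc* RNA per cell cannot be told apart. The Rpl22+/+ libraries were the more variable, with a coefficient of variation of 23.1% against 9.05%, and the lowest value came from the shallowest library. The direction held in all 16 alternatives (0.40 to 0.74), but the call was lost when Rpl22-/- replicate 2 (adjusted p = 0.0584) or 3 (0.117) or Rpl22+/+ replicate 2 (0.0804) or 3 (0.0954) was left out, and when trends with gene length and GC content were removed (log2 fold change 0.48, adjusted p = 0.0601).

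**Figure D2:**
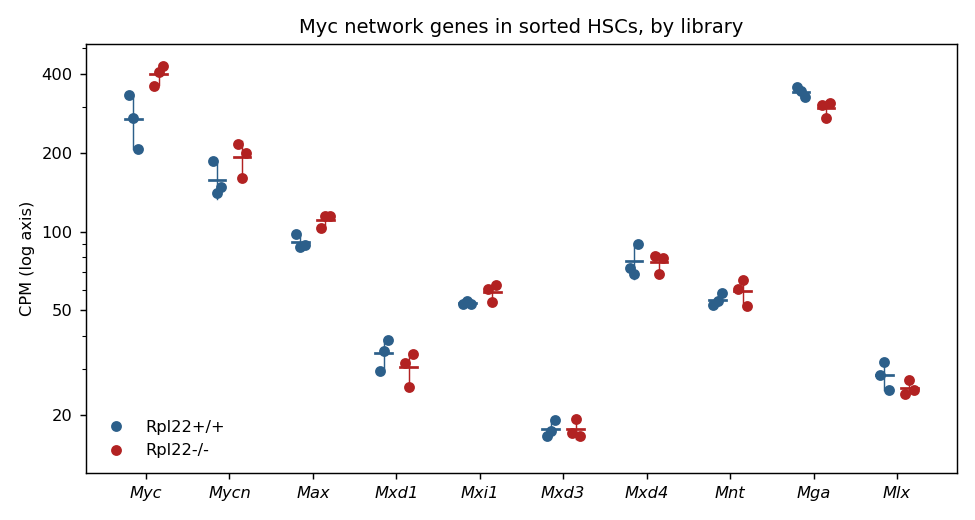
CPM of each network gene in each library on a log axis, with Rpl22+/+ libraries in blue and Rpl22-/- libraries in red, replicates 1 to 3 from left to right; the bar is the mean and the vertical line the SD of 3 libraries. The red points of *Myc* and *Max* lie above the blue ones and those of *Mga* below, while the colours overlap for the other 7 genes.

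*Mycn*, the paralog of *Myc* on chr12:12936093-12941914 (minus strand), was measured at 216, 160 and 200 CPM in Rpl22-/- and at 185, 140 and 148 CPM in Rpl22+/+ libraries. The genotypes overlapped, since Rpl22-/- replicate 2 lay below Rpl22+/+ replicate 1. The means were 192 ± 28.8 and 158 ± 24.2 CPM (SD, n = 3), and the log2 fold change of 0.28 (SE 0.119, 95% interval 0.030 to 0.54) did not pass (adjusted p = 0.174). Among the alternatives it passed only with no filter on low counts (0.29, adjusted p = 0.0408). Whether *Myc* and *Mycn* differed in their fold change was not tested. Rpl22-/- replicate 2, which was lowest of its group in *Mycn*, was in the middle of its group in *Myc*.

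*Max*, the shared partner on chr12:76937269-76962201 (minus strand), was measured at 103, 114 and 115 CPM in Rpl22-/- and at 98.2, 87.1 and 88.6 CPM in Rpl22+/+ libraries. The genotypes did not overlap, with a gap of 4.79 CPM. The means were 111 ± 6.66 and 91.3 ± 6.001 CPM, and the log2 fold change of 0.28 (SE 0.0869, 95% interval 0.092 to 0.46) did not pass (adjusted p = 0.0725). Leaving out Rpl22-/- replicate 1, the library nearest to the other genotype, was the one alternative in which it did (0.33, adjusted p = 0.0252).

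The 4 Mxd genes code for repressors that replace Myc on Max, as a rule when cells leave the cell cycle, and none of them passed the edgeR test here or in any of the 16 alternatives, DESeq2 and limma-voom included, with 0 of 4 at an unadjusted p under 0.05. Mxd1 is the member most tied to terminal myeloid differentiation. *Mxd1* (chr6:86647042-86669161, minus strand) was measured at 31.4, 25.6 and 34.1 CPM in Rpl22-/- and at 29.5, 34.9 and 38.5 CPM in Rpl22+/+ libraries. Its groups overlapped, and its log2 fold change was -0.17 (SE 0.133, 95% interval -0.45 to 0.11, adjusted p = 0.486). *Mxi1* (chr19:53310518-53375810, plus strand) was measured at 60.5, 53.9 and 62.3 CPM in Rpl22-/- and at 52.8, 54.3 and 52.8 CPM in Rpl22+/+ libraries. Rpl22-/- replicate 2 lay within the narrow range of the Rpl22+/+ values, and the log2 fold change was 0.14 (SE 0.0916, 95% interval -0.051 to 0.34, adjusted p = 0.384).

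*Mxd3* (chr13:55325168-55329823, minus strand), a member associated with proliferating cells, was the gene of the network with the fewest reads, 184 to 231 per library. Its level was 17.6 ± 1.40 CPM in Rpl22-/- and 17.7 ± 1.30 CPM in Rpl22+/+ HSCs (SD, n = 3), with a fitted log2 fold change of -0.0061 (SE 0.135, 95% interval -0.29 to 0.28). *Mxd4* (chr5:34173883-34187720, minus strand) was at 76.3 ± 6.63 and 76.9 ± 10.9 CPM, a log2 fold change of -0.0092 (SE 0.106, 95% interval -0.23 to 0.22). In both genes the sign of these values turned with the processing, so neither has a direction, and the intervals bound the change at 1.21-fold in *Mxd3* and 1.16-fold in *Mxd4* on the upper side.

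Mnt is the widely expressed antagonist of Myc that is present in resting and cycling cells alike. *Mnt* (chr11:74830920-74845725, plus strand) was measured at 60.4, 65.2 and 52.1 CPM in Rpl22-/- and at 52.4, 54.3 and 58.5 CPM in Rpl22+/+ libraries. Both the lowest and the highest of the 6 values came from Rpl22-/- libraries, and the log2 fold change of 0.11 (SE 0.101, 95% interval -0.11 to 0.32, adjusted p = 0.578) did not pass. *Mga* (chr2:119897228-119969581, plus strand) codes for a very large protein that carries a T-box as well as the dimerization domain. It was measured at 305, 271 and 309 CPM in Rpl22-/- and at 357, 343 and 325 CPM in Rpl22+/+ libraries. Every Rpl22-/- library was below every Rpl22+/+ library, by a gap of 16.2 CPM, but the log2 fold change of -0.21 (SE 0.0878, 95% interval -0.40 to -0.026) did not pass (adjusted p = 0.165). *Mga* had the longest exons of the network (15340 bases), and with the trends with length and GC content removed its log2 fold change was -0.048 (adjusted p = 0.788).

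*Mlx* (chr11:101087277-101092207, plus strand) was measured at 24.1, 27.2 and 24.9 CPM in Rpl22-/- and at 28.4, 31.9 and 24.9 CPM in Rpl22+/+ libraries. The groups overlapped, and the log2 fold change was -0.16 (SE 0.126, 95% interval -0.43 to 0.10, adjusted p = 0.477). In the annotation, 385 of the 1999 exon bases of *Mlx* (19.3%) overlap *Psmc3ip* on the opposite strand, and the strand setting of the counting is not given in the sources used here, so the reads of these genes may not be fully told apart. *Mxd3*, *Mxd4* and *Mxi1* also overlap a gene on the other strand, over 4.43%, 6.06% and 2.84% of their exon bases.

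**Figure D3:**
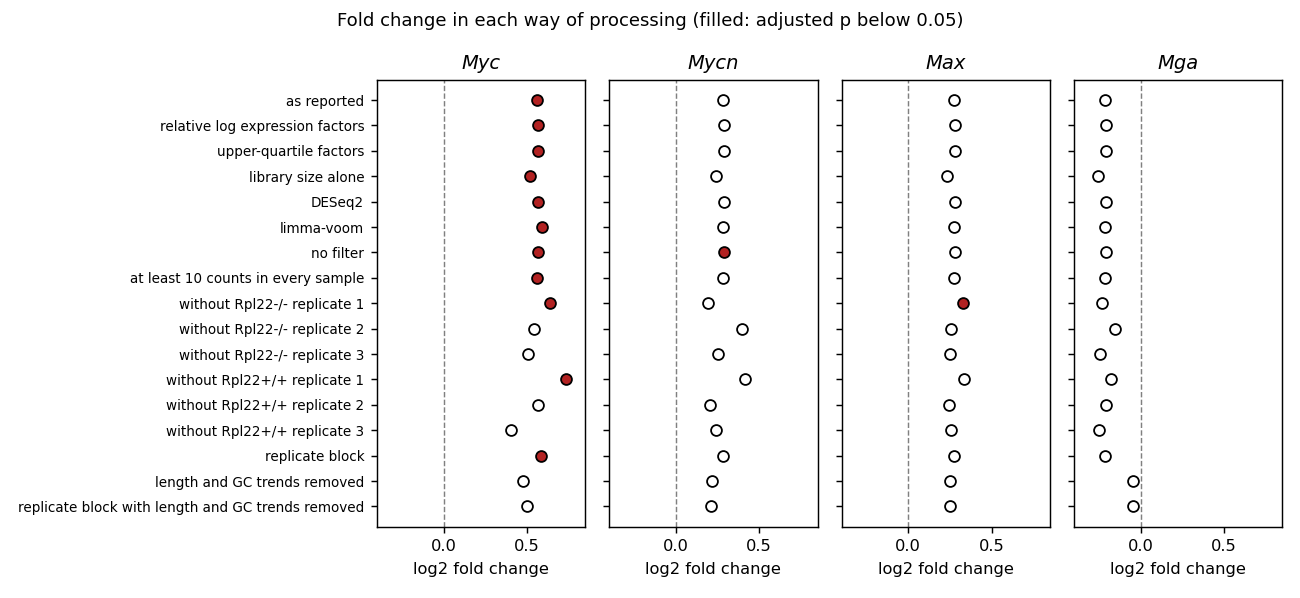
Log2 fold change (x axis) of *Myc*, *Mycn*, *Max* and *Mga* as reported and in 16 other ways of processing the counts (y axis); filled points mark an adjusted p below 0.05. *Myc* stays between 0.40 and 0.74 with filled and open points, *Mycn* and *Max* are filled once each, and *Mga* is open throughout and nearest to zero where the length and GC trends are removed.

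Per kilobase of exon, the order of the levels in Rpl22+/+ HSCs ran from *Myc* at 99.2 ± 22.9 CPM per kb (SD, n = 3) through *Mycn* at 47.9 ± 7.34, *Max* at 25.4 ± 1.67 and *Mga* at 22.3 ± 1.04 to *Mlx* at 14.2 ± 1.75 and *Mnt* at 11.9 ± 0.671. The 4 Mxd genes were lowest, *Mxd4* at 9.07 ± 1.29 CPM per kb, *Mxi1* at 7.82 ± 0.126, *Mxd3* at 7.48 ± 0.550 and *Mxd1* at 4.85 ± 0.641. The libraries of *Mlx* and *Mnt*, and those of *Mxi1* and *Mxd3*, overlapped, so the order within these pairs is not set. In Rpl22-/- HSCs, *Myc* was at 147 ± 13.3, *Mycn* at 58.3 ± 8.75, *Max* at 30.8 ± 1.85 and *Mga* at 19.2 ± 1.38 CPM per kb, and the order differed only in that *Mnt* stood above *Mlx*. With the longest transcript as the length, *Mxd4* moved to the fifth place, above *Mlx* and *Mnt*, because much of its exon sequence is not in that transcript.

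Added up per kilobase, *Myc* and *Mycn* together reached 198, 199 and 218 CPM per kb in Rpl22-/- against 178, 142 and 121 in Rpl22+/+ libraries. The 4 Mxd genes together reached 30.0, 27.7 and 30.3 against 27.5, 28.4 and 31.8 CPM per kb. The activators were therefore higher in every Rpl22-/- library than in any Rpl22+/+ library, while the Mxd sums overlapped. The ratio of the activator sum to the Mxd sum was 6.58, 7.16 and 7.21 in Rpl22-/- and 6.48, 5.01 and 3.80 in Rpl22+/+ libraries, so that Rpl22+/+ replicate 1 lay just under the lowest Rpl22-/- value. The level of this ratio depends on the lengths used, with means of 6.98 and 5.10 by exon union and of 5.41 and 3.95 by the longest transcript. With *Mnt* and *Mga* added to the repressors, it was 3.14, 3.34 and 3.54 against 2.87, 2.28 and 1.84. These ratios are of RNA and say nothing of protein or dimers, and no test was run on them since they were formed over the members.

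**Figure D4:**
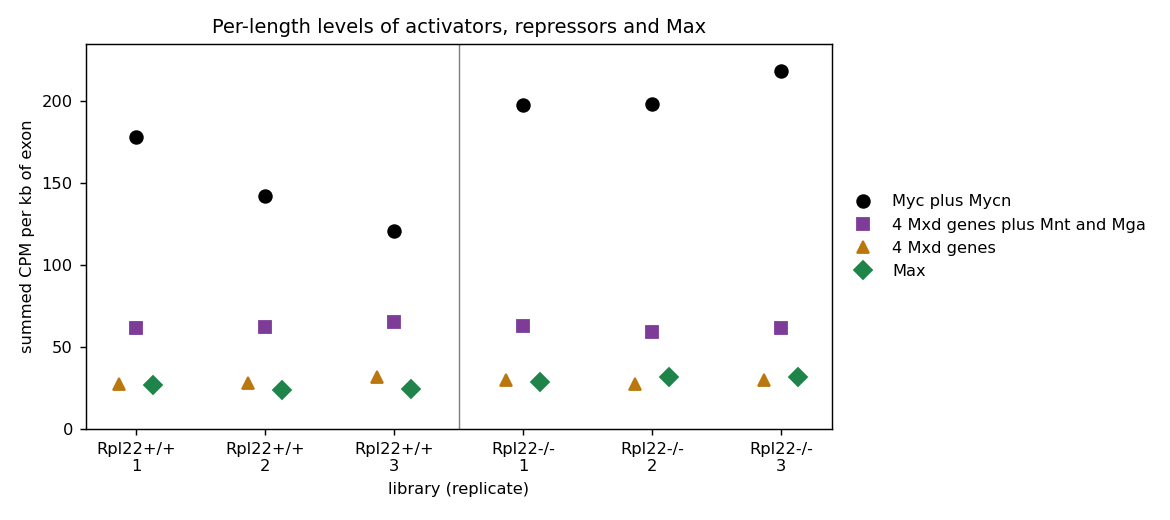
Summed CPM per kb of exon (y axis) in each of the 6 libraries (x axis) for *Myc* plus *Mycn* (circles), the 4 Mxd genes plus *Mnt* and *Mga* (squares), the 4 Mxd genes (triangles) and *Max* (diamonds). The circles lie at 121 to 178 in Rpl22+/+ and at 198 to 218 in Rpl22-/- libraries, while the squares stay between 59.5 and 65.6.

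Within single libraries, *Myc* made up 66.8, 75.5 and 72.3% of the summed *Myc* and *Mycn* level per kb in Rpl22-/- and 68.4, 70.1 and 62.9% in Rpl22+/+ libraries, and these shares overlapped. The ratio of *Myc* to *Max*, which Myc needs to bind DNA, was 4.61, 4.72 and 4.95 in Rpl22-/- and 4.46, 4.12 and 3.09 in Rpl22+/+ libraries. The sum of all Max partners over *Max* was 9.11, 8.13 and 8.79 against 8.80, 8.46 and 7.58, with overlap between the genotypes.

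Of the relatives of the network (Mycl, the Mondo proteins, Mitf, Tfe and Usf factors, which bind E-boxes too), 7 of 9 were tested and 0 passed the edgeR test, with 2 at an unadjusted p under 0.05 and 0 passing with DESeq2 or limma-voom. *Mycl1*, the remaining Myc paralog, had 2 reads in a single Rpl22+/+ library and 0 in the others, so that Myc and Mycn were the detected Myc genes at this depth. *Mlxip*, which codes for the Mondo partner MondoA, was at 162 and 168 CPM (log2 fold change -0.049, adjusted p = 0.840).

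The proteins that Myc and its antagonists recruit were compared next. Of 17 cofactors of Myc (among them acetyltransferase, helicase and elongation subunits such as Trrap and Ruvbl1), 14 had a fitted change above zero and 3 below, with a median log2 fold change of 0.13. None passed with edgeR or limma-voom, 2 passed with DESeq2 and 3 passed with edgeR without Rpl22-/- replicate 1. An unadjusted p under 0.05 was reached by 8, of which 7 were higher, where 22.3% of all genes reached it (11.6% higher). The genotypes did not overlap in 8 cofactors (47.1%, against 26.9% of all genes), with Rpl22-/- above in 7. Of 16 Sin3 and histone deacetylase corepressor genes, 9 were above and 7 below zero (median 0.011). *Sap18*, a Sin3 subunit, was the one that passed, at 106 against 80.2 CPM (log2 fold change 0.39, SE 0.0872, adjusted p = 0.0187). *Sap18* passed in 12 of the 16 alternatives. Those that lost its call included the ones without Rpl22-/- replicate 3 and without Rpl22+/+ replicate 1 or 3. Of the 11 genes of the Polycomb complex around Mga, 4 were above and 7 below zero (median -0.076), and of the 18 genes that control the turnover of the Myc protein, such as the ubiquitin ligase gene *Fbxw7*, 10 were above and 8 below (median 0.00097). In both of these lists 0 genes passed with edgeR, DESeq2 or limma-voom, and 1 and 3 genes reached an unadjusted p under 0.05.

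Of 72 genes known to be raised by Myc, mostly for ribosome production and nucleotide metabolism, 71 were tested, with a median log2 fold change of 0.14. Fitted changes were above zero in 57 (80.3%, against 48.7% of all genes tested) and below in 14. The test was passed by 4 of them (5.63%, against 5.57% of all genes), 3 higher and 1 lower. An unadjusted p under 0.05 in the same test was reached by 19, of which 18 were higher, where 22.3% of all genes reached it (11.6% higher). The genotypes did not overlap in 9 (12.7%, against 26.9% of all genes), of which 8 were higher. The median fell to 0.054 without Rpl22-/- replicate 2 and to 0.067 without Rpl22+/+ replicate 3, with 48 and 47 changes above zero. Leaving out Rpl22-/- replicate 1 gave 15 calls, replicate 2 gave 2 and replicate 3 gave 0. Leaving out any 1 of the Rpl22+/+ libraries gave 1, a lower gene each time. *Fbl*, the nucleolar methyltransferase fibrillarin, was at 218, 308 and 256 CPM in Rpl22-/- and at 185, 190 and 179 CPM in Rpl22+/+ libraries (log2 fold change 0.50, SE 0.108, adjusted p = 0.0168). *Nolc1*, a nucleolar chaperone of small nucleolar ribonucleoproteins, was at 217, 285 and 236 against 189, 195 and 152 CPM (0.46, SE 0.113, adjusted p = 0.0288). Both were highest in Rpl22-/- replicate 2 and did not overlap between the genotypes. *Pes1*, a ribosome assembly factor with the E-box shown above and the remaining called gene of the list, was at 120, 148 and 129 against 108, 106 and 99.3 CPM (0.34, adjusted p = 0.0395). *Tfrc*, the transferrin receptor that brings iron into cells, changed the other way, at 58.5, 48.9 and 54.4 CPM in Rpl22-/- and 78.7, 86.3 and 71.1 CPM in Rpl22+/+ libraries (-0.55, SE 0.0991, adjusted p = 0.00753). Of the 16 alternatives, *Fbl* passed in 12, *Nolc1* in 11, *Pes1* in 8 and *Tfrc* in 15. With any 1 of the Rpl22+/+ libraries left out, *Tfrc* was the one target called. The summed level of the list was 11622 to 14434 CPM in Rpl22-/- and 10015 to 12152 CPM in Rpl22+/+ libraries and overlapped.

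**Figure D5:**
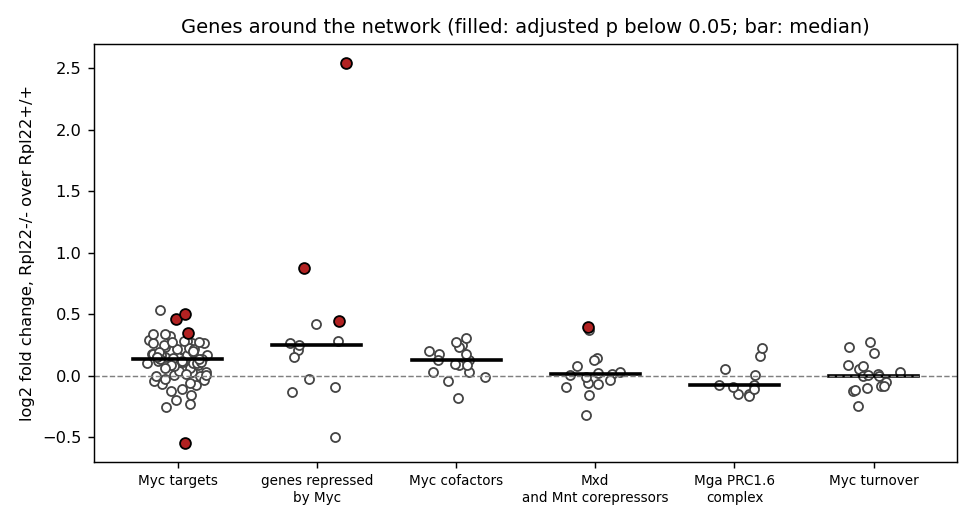
Log2 fold change (y axis) of every tested gene in 6 lists of genes around the network (x axis); filled points passed an adjusted p of 0.05, the bar is the list's median and the dashed line the median of all genes tested. The Myc targets have their median at 0.14 with 4 filled points, and the cofactor, Polycomb and turnover lists have no filled point.

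Of 14 genes known to be repressed by Myc, 13 were tested, 9 with a fitted change above zero and 4 below (median 0.25), and 3 passed, all of them higher in Rpl22-/- HSCs, but only 1 passed without Rpl22-/- replicate 3 or Rpl22+/+ replicate 2 or 3, and 2 without Rpl22-/- replicate 2 or Rpl22+/+ replicate 1. *Cdkn1a*, which codes for the cell cycle inhibitor p21 and is also a target of p53, was at 9.43, 15.5 and 13.3 CPM in Rpl22-/- and at 2.30, 1.69 and 2.60 CPM in Rpl22+/+ libraries (log2 fold change 2.54, SE 0.250, adjusted p = 7.56e-05). *Thbs1*, the matrix protein thrombospondin 1 (0.87, adjusted p = 0.0157), and *Ccnd1*, the G1 cyclin D1 (0.44, adjusted p = 0.0333), also passed.

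Genes of other groups were also called beside *Myc*, and their part in its change was not tested. Of 23 immediate early genes, which like *Myc* respond fast to growth signals and to cell handling, 17 were tested, 16 with a fitted change above zero, and 6 passed, all higher, among them *Ppp1r15a* (0.55, adjusted p = 0.00639), *Junb* (0.76, adjusted p = 0.00764) and *Ier5* (0.85, adjusted p = 0.0107). The count was 2 without Rpl22-/- replicate 3, 3 without Rpl22+/+ replicate 2 or 3 or with length and GC trends removed, and 4 without Rpl22-/- replicate 2 or Rpl22+/+ replicate 1. It was 11 without Rpl22-/- replicate 1, with 10 immediate early genes higher and 1 lower. The summed level of the immediate early list was 521 to 678 CPM in Rpl22-/- and 392 to 454 CPM in Rpl22+/+ libraries. Of 30 cell cycle genes, 23 were above zero (median 0.089). None passed with edgeR or limma-voom, 2 passed with DESeq2 and 6 reached an unadjusted p under 0.05, and their sums overlapped, at 4227, 5607 and 5707 against 4762, 4817 and 4901 CPM. Without Rpl22-/- replicate 1, the library with the lowest sum, 9 passed with edgeR and the median was 0.23, and without Rpl22-/- replicate 2 or 3 the median was 0.022 or 0.020 with 0 calls. *Dusp2* stands in both the target and the immediate early list, *Plk1* in both the target and the cell cycle list, and *Cbx3* in both the target and the Polycomb list.

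Lineage markers were also measured, and whether their reads came from HSCs or from other cells was not tested. Of 8 megakaryocyte markers 7 were tested and 5 passed, all higher in Rpl22-/- HSCs, with *Treml1* (0.78, adjusted p = 0.00441), *Gp1bb* (0.82, adjusted p = 0.00792) and *Itga2b* (0.51, adjusted p = 0.0115) the smallest in p. The count was 2 without Rpl22+/+ replicate 1 or 3, and 3 without Rpl22-/- replicate 2 or 3, with library size alone or with the trends removed, while all 7 fitted changes stayed above zero. Their sum was 1012 to 1279 CPM against 722 to 952 CPM, and *Gp6* was at 0 counts in every library. All 9 neutrophil markers were tested, 8 were above zero, and *Ctsg* and *Camp* passed. Their reads were few, 28, 163 and 48 in Rpl22-/- against 1, 10 and 19 in Rpl22+/+ libraries for *Ctsg*. For *Camp* they were 11, 31 and 47 against 10, 2 and 3. DESeq2 and limma-voom each called 1 of the 9 markers. The sums of the list were 108, 225 and 100 CPM in Rpl22-/- and 84.3, 66.9 and 106 CPM in Rpl22+/+ libraries, highest in Rpl22-/- replicate 2. With edgeR, no neutrophil marker passed without Rpl22-/- replicate 2 or 3 or Rpl22+/+ replicate 2. The count was 5 without Rpl22-/- replicate 1, 4 without Rpl22+/+ replicate 1 and 3 without Rpl22+/+ replicate 3. Erythroid markers (4 of 11 tested), B cell markers (2 of 7) and T cell markers (2 of 8) gave 0 calls with edgeR, DESeq2 and limma-voom, with 1, 1 and 0 at an unadjusted p under 0.05. The erythroid sums were 36.0 to 39.7 CPM in Rpl22-/- and 32.3 to 33.3 CPM in Rpl22+/+ libraries, and the B cell sums 27.1 to 29.6 against 23.2 to 25.2 CPM, both higher in Rpl22-/- without overlap. The T cell sums, 13.1 to 16.5 against 12.9 to 15.5 CPM, overlapped, and *Ms4a1*, *Cd3e* and *Trac* were at 0 counts in every library.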

How the data were processed

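The authors sorted HSCs from Rpl22-/- and Rpl22+/+ mice and prepared libraries with a TruSeq polyA kit. Per the labels, reads were aligned to mm10 with TopHat2 2.1.1 and counted per gene with HTSeq, and the deposited values are whole-number counts without normalization. HTSeq's lines of unassigned reads (58.6% to 60.9% of each library) stayed out of library sizes and tests. Every per-sample column was used (0 left out).

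Counts were tested in edgeR 4.0.16 (R 4.3.3) with filterByExpr at a minimum count of 10, TMM scaling and the quasi-likelihood test of genotype over all 6 libraries, with Benjamini-Hochberg adjustment over the 14004 genes tested. Adjusted p-values in the text come from this test unless another tool is named. Standard errors divide the size of the log2 fold change by the root of F, and CPM uses TMM-scaled library sizes. Lengths and positions came from the GENCODE M21 annotation of GRCm38 (mm10), and CPM per kb used the union of exons. Of the table's symbols, 29042 matched directly and 1870 through an older symbol. DESeq2 1.42.0 and limma 3.58.1 (voom) were alternatives, with other scalings, filters, left-out replicates, a replicate block and the removal of length and GC trends (lowess with a span of 0.3, over 13359 genes). The fit was tested on simulated data.

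The members and gene lists were chosen with earlier results of these data known. Named genes are all members, *Rpl22* and, in each list, up to 3 genes with the smallest p among those past an adjusted p of 0.05. *Pes1*, *Mycl1*, *Mlxip* and the markers at 0 were named besides, after their values were seen, as were genes given without values as examples of a list, as shared by lists or as overlapping a member, and so was the longest transcript chosen as another length. Each gene's precision rests on 3 libraries per genotype.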

Additional observations from a re-analysis of the deposited data

How the results depend on the processing

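Over all genes, 780 were called, against 1422 with no filter on low counts, 499 with length and GC trends removed, and 127 to 1720 when a replicate was left out. Of the members, 1 was called, against 2 with no filter, 0 with the trends removed, 0 with trends and replicate block together, and 0 to 2 with a replicate left out. Of the Myc targets 4 were called, against 10 with no filter, 7 with the replicate block, and 0 to 15 with a replicate left out; the causes were not tested. The direction of *Mxd4* (-0.0092) turned with limma-voom (0.0012), with the trends removed (0.033), with trends and block (0.036), and when Rpl22-/- replicate 2 (0.061) or Rpl22+/+ replicate 3 (0.11) was left out, in a range of -0.084 to 0.11 over the left-out replicates. That of *Mxd3* (-0.0061) turned without Rpl22-/- replicate 1 (0.024) or 3 (0.035) or Rpl22+/+ replicate 3 (0.050), in a range of -0.072 to 0.050. No other member turned.

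The labels do not say whether samples with the same replicate number were paired. Same-numbered libraries correlated at -0.103, 0.055 and 0.045 in their deviations from the group means, and Rpl22-/- replicate 1 correlated best with Rpl22+/+ replicate 3. These values gave no sign of pairing, but with 3 libraries per genotype they cannot exclude it. With the replicate block, *Myc* was at a log2 fold change of 0.58 (adjusted p = 0.0134, edgeR). The standard error of the fold change was 0.135 for *Mxd3* (184 to 231 reads) and 0.133 for *Myc* (1987 to 5646 reads). It was smaller for *Max* (0.0869, 852 to 1510 reads) and for *Mga* (0.0878, 3126 to 4646 reads).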
